A study of Mus musculus with 30 samples.

Results

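Mural cells are the pericytes and smooth muscle cells that wrap the vessel. The 10 genes here were listed as signals to them from endothelial cells (ECs), with an enzyme that activates 1 signal. They were taken as a fixed list of 10 of the 21820 protein-coding genes quantified: Pdgfa, Pdgfb and Pdgfd, which encode platelet-derived growth factor chains; Edn1, which encodes endothelin 1, and Ece1, which encodes an enzyme that cleaves its precursor; Hbegf, which encodes heparin-binding EGF-like growth factor; Tgfb1 and Tgfb2; and Bmp4 and Bmp6. All 10 passed the filter on low counts in each comparison. Membership does not make ECs the main source, and Bmp6 RNA was lower in the ECs sorted from brain than in the other sorted cells. The list was chosen with earlier results of these data known. Shares of all tested genes beside its counts are given for scale and test nothing.

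PDGF-B secreted by ECs is held in the vessel wall and binds PDGFR-beta on pericytes, and brain vessels that lack the signal lose their pericytes. Endothelin 1 is made as a long precursor that is cut to an active peptide, which contracts smooth muscle through its receptors. TGF-beta is secreted in a latent complex and is released by integrins, proteases or thrombospondin, while the bone morphogenetic proteins (BMPs) are restrained by secreted inhibitors, and both families signal through paired receptor kinases that ECs and mural cells carry.

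The study asked how brain ECs change when they leave the tissue and grow in culture, and whether stabilized beta-catenin, the effector of canonical Wnt signaling, keeps them closer to their state in the brain. RNA-seq was available from 14 libraries, with 2 of acutely isolated GFP-positive ECs, 2 of the GFP-negative cells of the same sorts, 6 of wild-type (WT) cultures and 4 of cultures with stabilized beta-catenin. ATAC-seq, which marks open chromatin, was available as peak lists from 2 acutely isolated, 6 WT and 2 stabilized libraries. Acutely isolated cells came from the brains of adult male mice carrying Tie2-GFP, a transgene that labels ECs, and each library combined reads from cerebrum and cerebellum. Cultures came from adult male mice, were purified with puromycin, received medium with serum and growth factors that included EGF, and were harvested on day 8. All mice used for culture, WT included, had received 100 ug of 4-hydroxytamoxifen at postnatal day 10. WT cultures 1 and 2 were made by isolation method A from C57BL/6J mice, and WT cultures 3 to 6 by method B from Ctnnb1flex3/+;Tie2-GFP mice without Cre. Stabilized cultures 1 and 2 (method A) and 3 and 4 (method B) all came from Ctnnb1flex3/+;Pdgfb-CreER;Tie2-GFP mice, in which Cre removes an exon of Ctnnb1 and leaves a stable protein. The Cre driver is built from regulatory DNA of Pdgfb, itself one of the 10 genes, and any part of transgene reads in its values was not tested. Replicates were wells, with 2 wells per experiment and the ECs of 4 to 6 mice pooled, so the cultures stand for 3 WT and 2 stabilized experiments and p-values among wells measure in part technical spread.

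Total estimated counts ranged from 24284843 to 94686456 per RNA-seq library. Levels are given as TPM, which scales each library to the same total and adjusts for transcript length. A set of 10 endothelial markers together reached 3021 to 3105 TPM in the acutely isolated ECs, 1767 to 4445 in WT cultures, 1968 to 6047 in stabilized cultures and 9.996 to 20.99 in GFP-negative cells. The 10 pericyte markers summed to 562.2 to 597.8 TPM in the acutely isolated ECs, within the 415.3 to 817.2 TPM of the GFP-negative cells. They summed to 4.767 to 11 TPM in WT cultures, where 7 of the 10 were below 1 TPM in every library. The 5 erythrocyte genes took 5448 to 41100 TPM of the acutely isolated libraries and at most 1.386 of the WT cultures. The 5 smooth muscle markers summed to 216.3 to 235.6 TPM in the acutely isolated ECs and 3615 to 5312 in GFP-negative cells. They summed to 502.9 to 3073 in WT cultures and 462.8 to 2563 in stabilized cultures. From acutely isolated ECs to WT cultures, mean Acta2 went from 103.1 to 565.9 TPM, Tagln from 95.62 to 1284 and Cnn1 from 2.743 to 44.73. Myh11 went the other way, from 22.34 to 1.679 TPM, and Des was level at 2.148 and 2.178. The part of these markers in the results was not tested. Acutely isolated libraries were amplified and read for 75 cycles from 1 end, most cultures for 36 cycles from both ends, and WT cultures 3 and 4 were prepared elsewhere and read for 150 cycles, so tissue or culture cannot be told apart from library type. In bulk samples, fewer cells of a type and less RNA per cell cannot be told apart.

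Accessible chromatin differed between tissue and culture at several of the genes, and stretches that carry this difference are shown first. Each is 150 bases on the strand of the named gene, in the mouse build GRCm38, around a peak summit except at the Edn1 promoter. Capitals mark TGANTCA, the letters of an AP-1 motif, searched on both strands. The Edn1 promoter, shown for comparison and held by a peak in all 10 libraries, lies at chr13:42301326-42301475 on the plus strand. Its window is the 150 bases just before the start site. The next 2 lie downstream of Edn1, at chr13:42308386-42308535 and chr13:42328637-42328786. Both were open in every WT culture and in neither acutely isolated library.

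Edn1 promoter: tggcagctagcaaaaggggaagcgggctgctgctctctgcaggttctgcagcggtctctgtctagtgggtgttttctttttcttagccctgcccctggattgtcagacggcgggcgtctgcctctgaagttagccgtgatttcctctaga
Edn1, 6985 bases after the start site: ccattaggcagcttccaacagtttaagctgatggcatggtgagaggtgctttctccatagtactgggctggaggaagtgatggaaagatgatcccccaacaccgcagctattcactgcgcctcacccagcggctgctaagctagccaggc
Edn1, 27236 bases after the start site: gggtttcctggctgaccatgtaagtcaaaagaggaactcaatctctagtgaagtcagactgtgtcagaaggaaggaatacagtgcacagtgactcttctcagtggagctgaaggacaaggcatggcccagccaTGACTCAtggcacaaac

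A pair of windows inside Bmp6, at chr13:38349957-38350106 and chr13:38410679-38410828 on the plus strand, and a window inside Pdgfd, at chr9:6298693-6298842 on the plus strand, had peaks in the same libraries, that is in all 6 WT cultures and in neither acutely isolated library. They are shown because they carry the AP-1 letters.

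Bmp6, 4925 bases after the start site: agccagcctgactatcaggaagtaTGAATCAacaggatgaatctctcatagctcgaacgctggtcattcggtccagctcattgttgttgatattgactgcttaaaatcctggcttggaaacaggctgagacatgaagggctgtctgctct
Bmp6, 65647 bases after the start site: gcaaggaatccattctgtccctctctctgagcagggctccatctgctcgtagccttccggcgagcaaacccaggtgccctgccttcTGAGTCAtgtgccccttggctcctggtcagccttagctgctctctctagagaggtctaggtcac
Pdgfd, 130184 bases after the start site: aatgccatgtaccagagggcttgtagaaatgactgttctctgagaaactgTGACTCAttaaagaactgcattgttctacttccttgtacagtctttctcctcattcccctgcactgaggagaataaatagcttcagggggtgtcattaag

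The opposite case is a window upstream of Pdgfb at chr15:80019728-80019877 on the minus strand, open in both acutely isolated libraries and in no culture of either genotype. It holds no AP-1 letters and neither CTTTGAT nor CTTTGTT, the letters searched for the TCF/LEF factors that bind beta-catenin.

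Pdgfb, 4826 bases before the start site: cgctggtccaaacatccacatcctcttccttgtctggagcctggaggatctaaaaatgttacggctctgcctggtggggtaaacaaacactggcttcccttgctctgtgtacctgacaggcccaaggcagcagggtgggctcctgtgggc

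Of the 3 PDGF chains, only Pdgfb was higher in GFP-positive than in GFP-negative cells by the call used throughout, which required at least 5 TPM in every replicate of the higher group, a log2 change past 1 in size and an adjusted p below 0.05. Pdgfb, the chain that recruits pericytes, stood at 94.9 and 53.2 TPM in the acutely isolated ECs and at 1.37 and 3.46 TPM in the GFP-negative cells. In WT cultures it ranged from 108.8 to 186.8 TPM, with a median of 144.9, so every culture lay above both acutely isolated libraries. Stabilized cultures 1 and 2 reached 399 and 400 TPM, while cultures 3 and 4, at 161 and 153 TPM, lay within the WT range.

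**Figure D1:**
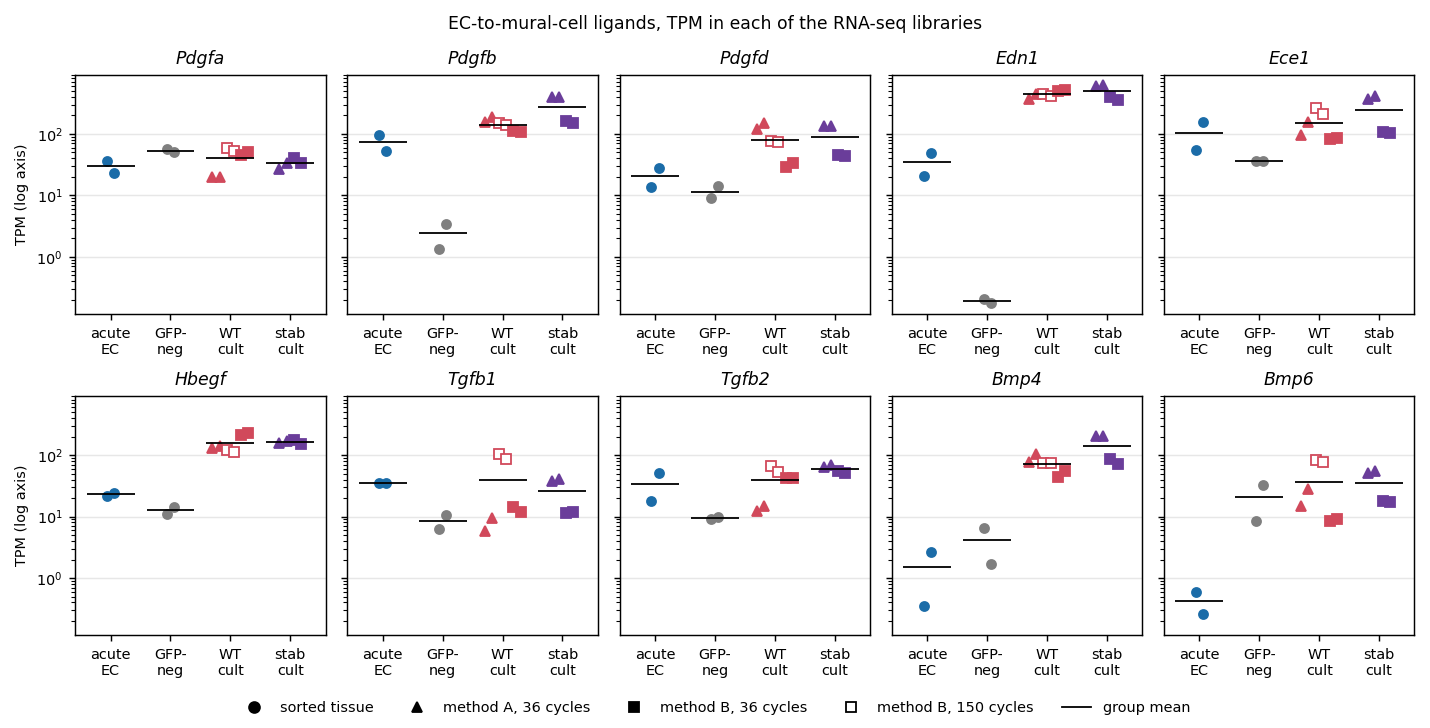
TPM on a log axis for each of the 10 genes in each of the 14 RNA-seq libraries, grouped by condition, with the marker giving the isolation method, an open marker the 150-cycle libraries and a line the group mean. Pdgfb, Pdgfd, Edn1, Hbegf, Bmp4 and Bmp6 sit higher in every culture than in both acutely isolated libraries. Tgfb1 spans 5.829 to 104.5 TPM among the WT cultures alone.

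The enrichment of Pdgfb in GFP-positive cells came to 5.36 on the log2 scale (SE 0.43, n = 2 and 2, adjusted p = 0.00172 in the quasi-likelihood test of edgeR after Benjamini and Hochberg, the source of all adjusted p-values below unless another tool is named). In all, 5 of the 10 genes were called higher in GFP-positive cells, where 8.3% of 15102 tested genes were (1254 higher and 1142 lower, or 930 and 1419 with scaling by library size alone, under which the same number of the 10 genes was called), and TPM ranges did not overlap for 6 with GFP-positive cells higher (20.1% of tested genes) and for 2 with them lower (37.1%). For WT culture against acutely isolated ECs, by contrast, the log2 fold change of Pdgfb on estimated counts was 0.28 (SE 0.56, adjusted p = 0.71). It was 0.90 in method A cultures, 0.32 in the 36-cycle cultures of method B and -0.93 in the 150-cycle cultures, so its direction depended on which cultures were compared. Stabilized cultures against acutely isolated ECs gave 1.15 (SE 0.29, adjusted p = 0.0139), a call that was lost under 5 of 17 alternatives. It was 0.88 without acutely isolated library 2 (adjusted p = 0.0525), 1.22 with both wells of each experiment summed (adjusted p = 0.0616) and 1.10 with an offset for transcript length (adjusted p = 0.0657). It was 1.17 with all 14 libraries in 1 fit (adjusted p = 0.0822) and 0.87 in the 36-cycle cultures of method B (adjusted p = 0.0572).

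Pdgfd, whose product binds PDGFR-beta after a protease removes its CUB domain, had 13.8 and 27.7 TPM in the acutely isolated ECs and 8.95 and 14.1 TPM in the GFP-negative cells, so those groups overlapped. In WT cultures it ranged from 29.25 to 149.3 TPM with a median of 75.46, above both acutely isolated libraries. The level followed the experiment, with 119 and 149.3 TPM in method A cultures, 76 and 74.9 in the 150-cycle cultures and 29.2 and 33.1 in the other cultures of method B. The log2 fold change of WT culture against tissue was 1.02 (SE 0.69, adjusted p = 0.251) over all 6 cultures. In method A cultures alone it was 1.96 (adjusted p = 0.00387) and in the 36-cycle cultures of method B -0.11 (adjusted p = 0.643). Stabilized cultures had 135, 135, 45.4 and 43.4 TPM, with a log2 fold change over tissue of 0.91 that had an adjusted p of 0.0394 and missed the fold threshold. Under 7 of 17 alternatives it was called higher, with values up to 1.93 (limma on TPM).

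Pdgfa, which signals through PDGFR-alpha on glial precursors and fibroblasts, was the only one of the 10 genes with its highest mean in the GFP-negative cells. It had 56.4 and 50.9 TPM there against 36.7 and 23.3 TPM in GFP-positive ECs, groups that did not overlap, and the log2 difference was -0.77 (SE 0.56, adjusted p = 0.351). WT cultures ranged from 19.71 to 59.18 TPM with a median of 48.52, and stabilized cultures from 27.13 to 40.08 TPM, both overlapping the acutely isolated ECs. No comparison with culture called Pdgfa.

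Edn1 had the widest enrichment in ECs of the 10 genes and the highest level of any of them in culture. Acutely isolated ECs held 20.4 and 48.8 TPM, while the GFP-negative cells held 0.208 and 0.176 TPM from 44 and 21 estimated counts. WT cultures ranged from 374.4 to 519.3 TPM with a median of 443.8, and stabilized cultures had 593, 616, 401 and 353 TPM. Every culture was above both acutely isolated libraries, and WT and stabilized cultures overlapped.

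Edn1 was called in both of these comparisons. GFP-positive cells exceeded GFP-negative cells by 7.39 on the log2 scale (adjusted p = 0.00173, SE 0.61). WT cultures exceeded acutely isolated ECs by 3.30 (SE 0.57, n = 6 and 2, adjusted p = 0.00202), and the mean TPM by 12.98-fold. The fold differs between counts and TPM with the effective length that salmon estimated, which was 914 to 1006 bases for the single Edn1 transcript in the acutely isolated libraries and 1750 to 2087 bases in the WT cultures. Among all 21820 genes, Edn1 ranked 2082 by mean TPM in acutely isolated ECs, 215 in WT cultures and 164 in stabilized cultures. Within each of the 3 kinds of WT culture the log2 fold change stayed between 2.46 and 3.82, with an adjusted p between 0.00263 and 0.00319.

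Ece1, the converting enzyme, was the most abundant of the 10 genes in acutely isolated ECs by mean TPM, but its replicates stood apart there, at 55 and 156 TPM. GFP-negative cells had 36.2 and 36.9 TPM, below both. WT cultures ranged from 82.77 to 263.1 TPM with a median of 128.3, and overlapped the acutely isolated ECs. Stabilized cultures of method A had 368 and 412 TPM, and those of method B had 107 and 102 TPM.

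On estimated counts Ece1 was called higher in GFP-positive cells, by 3.23 on the log2 scale (adjusted p = 0.00218, SE 0.32). That fold was 1.57 once transcript length entered as an offset (adjusted p = 0.0729) and 1.32 with limma on log2(TPM + 1) (adjusted p = 0.209), and neither passed. Salmon assigned 33.31 to 93.17% of Ece1 TPM in GFP-negative cells to Ece1-204, a 728-base transcript, and 16.17 to 34.37% in WT cultures. Against tissue, WT cultures differed by -0.12 (SE 0.31, adjusted p = 0.772) and Ece1 was not called.

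Hbegf, an EGF receptor ligand that is shed from the cell surface, was low in the tissue and high in culture. It had 21.2 and 24.6 TPM in acutely isolated ECs and 11.2 and 14.2 TPM in GFP-negative cells. WT cultures ranged from 112.1 to 226.6 TPM with a median of 135.2, and stabilized cultures had 159, 171, 173.6 and 148.8 TPM. All 10 cultures lay above the acutely isolated ECs, and the genotypes overlapped. The log2 fold change of WT culture over tissue was 2.37 (SE 0.68, adjusted p = 0.0203), and leaving out acutely isolated library 1 or 2 gave 2.20 (adjusted p = 0.117) and 2.50 (adjusted p = 0.0848), which no longer passed. Within each kind of WT culture Hbegf passed, with 1.14 in the 150-cycle cultures, 2.17 in method A and 3.13 in the other cultures of method B. Enrichment in GFP-positive cells was 0.78 (adjusted p = 0.17), although both GFP-positive libraries were above both GFP-negative ones.

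The TGF-beta genes were higher in GFP-positive cells, and their level in culture depended on the experiment. Tgfb1 had 34.8 and 35 TPM in acutely isolated ECs and 6.3 and 10.7 TPM in GFP-negative cells. In WT cultures it had 5.83 and 9.56 TPM in method A, 105 and 87.2 TPM in the 150-cycle cultures and 14.2 and 11.7 TPM in the other cultures of method B. So 4 WT cultures lay below both acutely isolated libraries and 2 above. Stabilized cultures had 37.9 and 41.4 TPM in method A and 11.6 and 11.8 TPM in method B.

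Tgfb1 was higher in GFP-positive than in GFP-negative cells by 2.35 on the log2 scale (adjusted p = 0.0106, SE 0.42), which was 2.33 without GFP-negative library 2 and then missed the threshold (adjusted p = 0.0538). WT culture against tissue gave -0.90 (SE 0.63, adjusted p = 0.272) over all 6 cultures. Over the 4 WT cultures of 36 cycles, an alternative chosen after the data were seen, it was -1.68 (adjusted p = 0.0161). In method A cultures the value was -2.27 (adjusted p = 0.00898), in the 36-cycle cultures of method B -1.26 (adjusted p = 0.0265), and in the 150-cycle cultures -0.01 (adjusted p = 0.971). Tgfb1 was therefore lower than in tissue in the 36-cycle WT cultures of both methods, and the pooled value rested on WT cultures 3 and 4. The stabilized cultures of method A, also of 36 cycles, had 37.9 and 41.4 TPM, above both acutely isolated libraries.

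Tgfb2 had 18.2 and 50.5 TPM in acutely isolated ECs, 9.12 and 9.88 TPM in GFP-negative cells, and 12.31 to 66.19 TPM (median 42.95) in WT cultures. Enrichment in GFP-positive cells was 2.17 on the log2 scale (SE 0.35, adjusted p = 0.00768). WT culture against tissue gave -1.25 (SE 0.49, adjusted p = 0.0625), although the mean TPM of 38.91 ± 21.36 (SD, n = 6) in culture was no lower than the 34.32 ± 22.85 (SD, n = 2) in tissue. The call for Tgfb2 turned on the tool and the libraries: it was called lower with DESeq2 (-1.35, adjusted p = 0.0273), without WT culture 5 (-1.47, adjusted p = 0.0346) or 6 (-1.46, adjusted p = 0.0379), while the value was 0.11 with limma on TPM. By kind of culture it was -2.18 in method A, -1.51 in the 150-cycle cultures and -0.54 in the other cultures of method B. In the stabilized cultures it had 63.7, 68.2, 55.2 and 51.1 TPM, all above both acutely isolated libraries, the closest by a narrow margin. On estimated counts the log2 fold change of stabilized cultures against tissue had the opposite sign, at -0.35 (SE 0.26, adjusted p = 0.276), and was not called.

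The BMP genes showed the largest differences between tissue and culture. Bmp4 had 0.349 and 2.68 TPM in acutely isolated ECs, from 66 and 250 estimated counts, and 6.5 and 1.67 TPM in GFP-negative cells. WT cultures ranged from 43.3 to 106.1 TPM with a median of 74.09, and stabilized cultures had 207, 205, 85.5 and 71.5 TPM. The WT cultures were higher by 4.87 on the log2 scale (adjusted p = 0.00176, SE 0.81). A 258-base fragment annotated as a retained intron, Bmp4-204, took 16.81 to 47.59% of Bmp4 TPM in WT cultures, and the 2 transcripts with the full coding sequence held 24.8 to 61.5 TPM there against 0.349 and 2.68 TPM in the acutely isolated ECs.

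Bmp6 was the member with the reverse pattern in tissue, since GFP-negative cells had 8.31 and 32.6 TPM and GFP-positive ECs 0.598 and 0.259 TPM. It was the only one of the 10 genes called lower in GFP-positive cells (log2 fold change -3.73, SE 0.73, adjusted p = 0.0141), where 7.56% of tested genes were. WT cultures had 14.7 and 28.4 TPM in method A, 82.8 and 76.6 in the 150-cycle cultures and 8.34 and 9.03 in the other cultures of method B. The lowest of these was above the higher acutely isolated library, and the difference of 4.32 on the log2 scale (SE 0.75, adjusted p = 0.00211) was called. Stabilized cultures had 51.3, 54.3, 17.9 and 17.5 TPM, overlapping WT cultures.

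**Figure D2:**
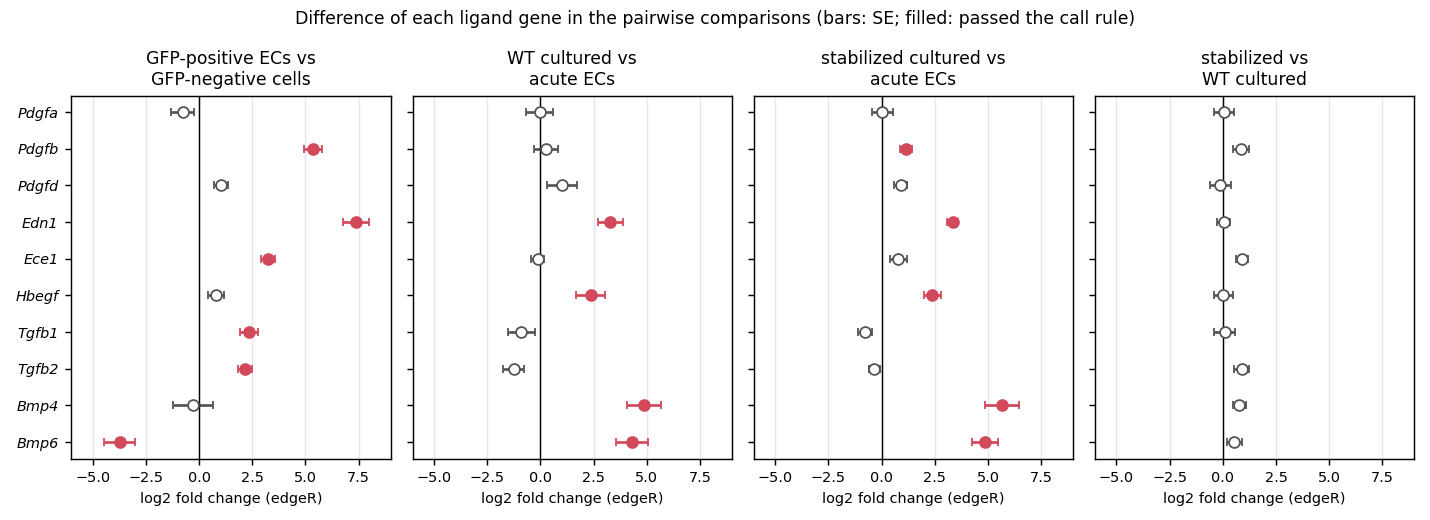
Log2 fold change of each of the 10 genes in the 4 pairwise comparisons, with bars for the SE and filled points for genes that passed the call. Edn1, Hbegf, Bmp4 and Bmp6 are filled on the positive side in WT cultures against acutely isolated ECs, and no point is filled for stabilized against WT cultures.

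Counted over the 10 genes, 4 were called higher in WT cultures than in acutely isolated ECs, where 13.5% of 13784 tested genes were, and 0 lower, where 10.2% were. The count of 0 came from edgeR, in which Tgfb2 alone of the 10 genes was lower at an unadjusted p under 0.05, and DESeq2 called 1 lower. TPM ranges did not overlap, with culture higher, for 6 of the 10 genes (32.1% of all tested genes). The median log2 fold change of the 10 genes was 0.65 and that of all tested genes 0.10, which rose to 0.30 with scaling by library size alone. In stabilized cultures against the same acutely isolated libraries, 5 genes were called higher (15.1% of tested genes) and 0 lower (11%), with Edn1 at 3.34 (SE 0.27, adjusted p = 0.000236), Hbegf at 2.38, Bmp4 at 5.66 and Bmp6 at 4.87 beside Pdgfb. The TPM of 7 genes lay above tissue in every stabilized culture (38.7% of tested genes), among them Tgfb2, whose log2 fold change on estimated counts was -0.35. The 2 comparisons share the acutely isolated libraries and are set side by side only. The 10 genes were chosen with earlier results of these data known, so their counts were not tested against the shares.

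The order of the 10 genes by mean TPM differed between tissue and culture. In acutely isolated ECs Ece1 (105.5 ± 71.36, SD, n = 2) and Pdgfb (74.06 ± 29.49) came first, then Tgfb1, Edn1, Tgfb2 and Pdgfa between 34.93 and 30.0 TPM, then Hbegf (22.88) and Pdgfd (20.76), and last Bmp4 (1.514) and Bmp6 (0.4285). Pdgfb lay above Tgfb1, and Pdgfd above Bmp4, in every library, while the replicates of the other neighbours down to Pdgfd overlapped. In WT cultures Edn1 led (449.1 ± 55.35 TPM, SD, n = 6), above every other member in every WT library, followed by Hbegf (157.0), Ece1 (150.1) and Pdgfb (141.8). Pdgfd (80.19) and Bmp4 (71.32) came next, and Pdgfa, Tgfb2, Tgfb1 and Bmp6 closed the order between 41.38 and 36.64 TPM. From Hbegf on, the ranges of neighbours overlapped. Stabilized cultures kept Edn1 first (490.9 ± 133.0, SD, n = 4), with Pdgfb (278.4 ± 140.0) and Ece1 (247.3 ± 165.7) after it. Ranges of neighbours overlapped over the 4 cultures, although Edn1 lay above Pdgfb and Ece1 within every stabilized library.

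Whether stabilized beta-catenin changed any of these genes in culture was asked next. None of the 10 genes was called in either direction by edgeR, and neither was any of the 12958 tested genes (0%), with 1344 genes at an unadjusted p under 0.05. DESeq2 called 18 of the tested genes and again none of the 10. Unadjusted p-values were under 0.05 for Ece1 (0.90 on the log2 scale, SE 0.27), Tgfb2 (0.89, SE 0.36), Bmp4 (0.78, SE 0.32) and Pdgfb (0.87, SE 0.38), with adjusted p-values from 0.403 to 0.474. For none of the 10 genes were all 4 stabilized cultures above all 6 WT cultures (0.44% of tested genes) or below them (0.286%).

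Isolation method and sequencing run divide these cultures, so the comparison was repeated within method A and within the 36-cycle cultures of method B, with 2 wells of 1 experiment in each group. In method A, stabilized cultures were higher for Tgfb1 (log2 fold change 1.81, SE 0.15, adjusted p = 0.000616), Tgfb2 (1.51, SE 0.069, adjusted p = 0.000255) and Ece1 (1.04, SE 0.12, adjusted p = 0.00117), a fit in which 692 of 12848 genes were called higher and 118 lower. In method B only Bmp6 was called higher (1.19, SE 0.062, adjusted p = 0.000476), where 138 of 12835 genes were. Pdgfb was at 0.43 in method A and 0.59 in method B, and Bmp4 at 0.49 and 0.56, each positive in both with an adjusted p of at most 0.00666 and under the fold threshold. Bmp6 was also positive in method A (0.66), as were Ece1 (0.52) and Tgfb2 (0.42) in method B, with an adjusted p of at most 0.0156. Hbegf was negative in both, at -0.36 (adjusted p = 0.0144) and -0.35 (adjusted p = 0.00761). Pdgfd went opposite ways, at -0.73 in method A and 0.59 in method B. With 1 experiment per group, genotype and experiment cannot be told apart, and the WT strain also differed between the methods.

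**Figure D3:**
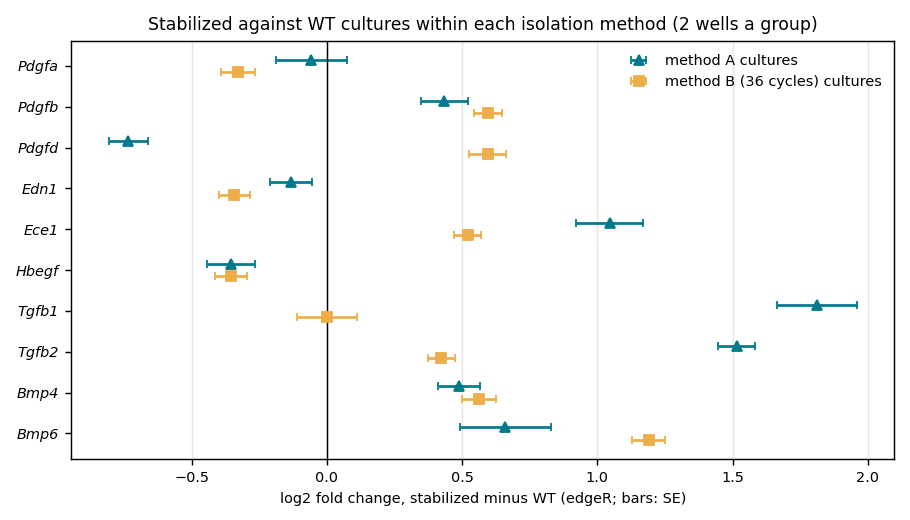
Log2 fold change of stabilized against WT cultures for each of the 10 genes, computed separately in method A cultures and in 36-cycle cultures of method B, with bars for the SE over 2 wells a group. Pdgfb, Ece1, Tgfb2, Bmp4 and Bmp6 are to the right of 0 in both and Hbegf to the left, whereas Pdgfd lies at -0.73 in method A and 0.59 in method B.

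The files give TPM per transcript, and several of the 10 genes were assigned to different transcripts in tissue and culture. For Pdgfb, the full-length coding transcript Pdgfb-201 (2944 bases, 241 amino acids) held 28.66 and 56.12% of the gene in acutely isolated ECs and 85.53 to 96.27% in WT cultures. The remainder in tissue was mainly Pdgfb-204, a 652-base model at 33.03 and 68.7%, which held at most 0.4069% in WT cultures. Pdgfb-201 alone therefore stood at 27.21 and 29.86 TPM in tissue and at 94.04 to 161.4 TPM in WT cultures, groups that did not overlap.

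Pdgfb-202, a transcript of 2163 bases annotated as a retained intron, separated the culture genotypes. It held 24.39 to 25.36% of Pdgfb in the 4 stabilized cultures and 2.942 to 14.09% in the 6 WT cultures, with the method A and method B stabilized cultures within 1 percentage point of each other. All stabilized values were above all WT values. How many other transcripts separated the genotypes in this way was not counted. Its level was 38.44 to 98.24 TPM in stabilized and 4.051 to 23.91 TPM in WT cultures. The stabilized mice carry Pdgfb-CreER and the WT mice do not, so a contribution of the transgene cannot be told apart from one of stabilized beta-catenin.

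Pdgfa was assigned mainly to Pdgfa-201, which encodes the longer chain of 211 amino acids, in acutely isolated ECs (49.8 and 61.31%). In WT cultures this transcript held at most 7.537%, and the transcripts Pdgfa-202 and Pdgfa-204, both encoding 196 amino acids, held 12.13 to 72.22% and 21.77 to 81%. Tgfb2-206, which has an exon more than Tgfb2-201 and encodes 442 rather than 414 amino acids, held at most 1.122% in acutely isolated ECs, 23.04 to 57.45% in WT cultures and 27.36 to 31.27% in stabilized cultures. For Ece1 the 4816-base transcript Ece1-201 held 31.35 and 47.3% in tissue and 60.25 to 76.54% in WT cultures. These shares are salmon's assignment of short reads, and for tissue against culture they cannot be told apart from the change in library type.

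**Figure D4:**
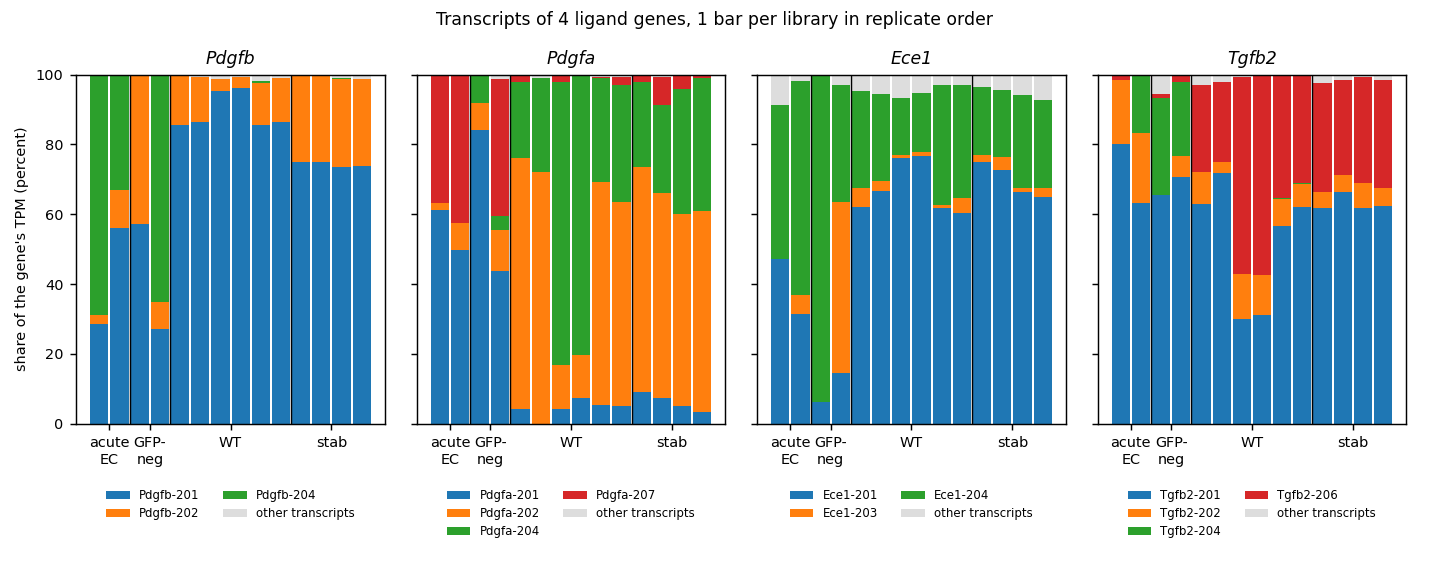
Share of each gene's TPM (percent) held by its transcripts for Pdgfb, Pdgfa, Ece1 and Tgfb2, with 1 bar per RNA-seq library grouped by condition. The retained-intron transcript Pdgfb-202 takes 24.39 to 25.36% in all 4 stabilized cultures, and Pdgfa-201 falls from at least 49.8% in acutely isolated ECs to at most 7.537% in WT cultures.

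At the start sites, chromatin was open in most libraries. A peak lay within 1000 bases of the start site in every library of all 3 groups for Pdgfd, Edn1, Ece1, Hbegf, Tgfb2 and Bmp6. Bmp6 was thus open at its promoter in both acutely isolated libraries, where its RNA was at or below 0.598 TPM. Pdgfb had a peak in 2 of 2 acutely isolated, 5 of 6 WT and 2 of 2 stabilized libraries. Tgfb1 had one in 2 of 2, 4 of 6 and 2 of 2, and with a stricter threshold in 2 of 2, 0 of 6 and 0 of 2. Pdgfa had a peak there in 2 WT libraries alone, and Bmp4 in none. The start site used is the outermost annotated one. The transcripts Pdgfa-201, Pdgfa-202 and Pdgfa-204 start further in, within the region chr5:138994710-138996295, which held a peak in every library of all 3 groups, as did a Bmp4 region 3262 bases into the gene. In all, 8 of the 10 genes had a promoter peak in every acutely isolated library (50.7% of 21951 start sites), 6 in every WT library (49.3%) and 8 in every stabilized library (57.4%).

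The genes and 50000 bases either side of them held 203 regions with a peak in any library. Of these, 20 were open in every WT culture and in no acutely isolated library (9.85%, against 8.11% of all 125868 regions), 6 in both acutely isolated libraries and in no WT culture (2.96%, against 2.92%), and 30 in all of them (14.8%, against 13.4%). Each share was near that of all regions. All 20 regions gained in WT cultures were also open in both stabilized libraries, and all 6 lost regions were in neither. How often this holds for gained and lost regions genome-wide was not counted, so it is not a trait shown for these genes. The number of peaks per library ran from 31844 to 37453 in tissue and from 33152 to 98840 in WT cultures, which bears on both counts.

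Tgfb2 held 6 of the gained regions, Pdgfd, Ece1 and Bmp6 held 3 each, Edn1 held 2, and Pdgfb, Hbegf and Tgfb1 held 1 each. At Edn1 the region 27236 bases after the start site, spanning chr13:42328391-42329503, reached a fold enrichment over local background of 25.0 in WT and 23.2 in stabilized cultures. The nearer Edn1 region, spanning chr13:42307443-42309567, reached 5.83. At Pdgfd the region 130184 bases into the gene reached 31.4, the highest of the 20 regions. At Bmp6 the regions 4925, 65647 and 105679 bases into the gene reached 12.4, 16.4 and 15.4. Pdgfa and Bmp4 had neither a gained nor a lost region, although Bmp4 RNA was among the most changed. Under the stricter threshold Pdgfa had 1 gained and 1 lost region and Bmp4 again 0 of each.

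Pdgfb held 3 of the 6 lost regions and 1 gained region, which turned to 1 lost and 2 gained under the stricter threshold. The region spanning chr15:80019512-80020208, whose central bases are printed above, reached a fold enrichment of 8.75 in tissue, and the others, 35449 bases before and 61256 bases after the start site, reached 4.39 and 3.001. Pdgfd, Ece1 and Tgfb2 held 1 lost region each. For 12 of the 20 gained and 3 of the 6 lost regions the nearest start site was that of the gene itself, and the other regions lie closer to a neighbouring gene.

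**Figure D5:**
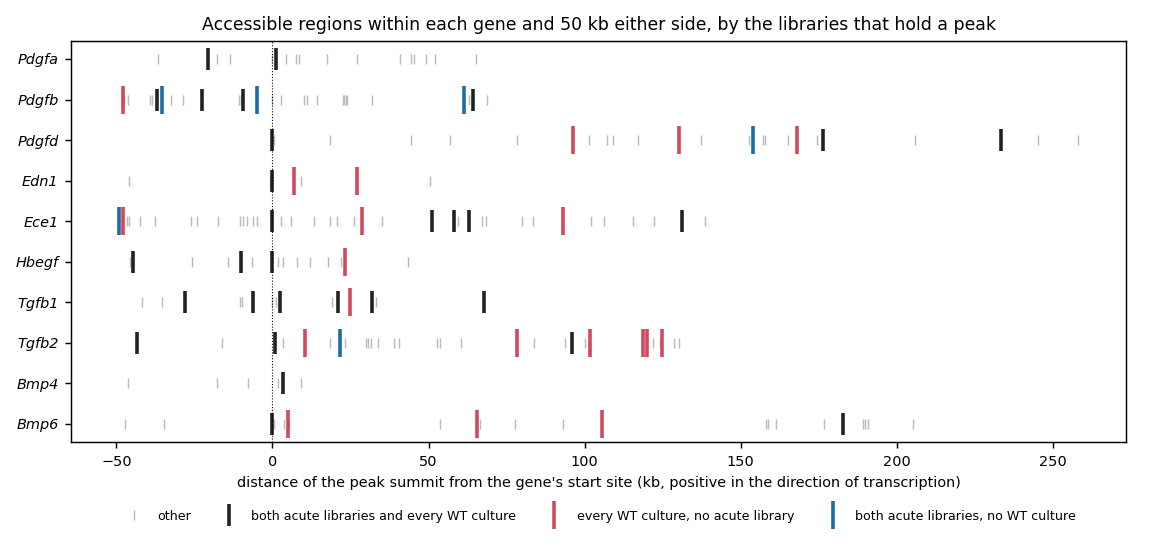
Distance in kb of each ATAC-seq peak summit from the start site of the gene, for all regions within each of the 10 genes and 50 kb either side, colored by the libraries that held a peak. The 20 regions open in every WT culture and in no acutely isolated library lie at 8 genes, 6 of them at Tgfb2, and 3 of the 6 regions open in both acutely isolated libraries and in no WT culture lie at Pdgfb.

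Letters of the AP-1 motif, TGANTCA, occurred within 300 bases around the summit in 12 of the 20 gained regions (60.0%). Of all regions gained genome-wide 52.4% held them, of all 125868 regions 27.6% and of all lost regions 6.07%. In the printed windows of 150 bases the letters appear in capitals at the farther Edn1 region, both printed Bmp6 regions and the Pdgfd region. The Bmp6 and Pdgfd windows were chosen for these letters, so the printed set cannot be compared with a share. The gained Bmp6 region 105679 bases into the gene, not printed, held 0 matches in its 150 bases. At that length 46.3% of regions gained genome-wide and 23.1% of all regions hold the letters. The letters searched for TCF/LEF occurred in 2 of the 6 lost regions (33.3%), against 27.9% of all lost regions and 13.4% of all regions at 300 bases. These matches describe the sequence and do not show that a factor was bound.

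Other genes of the same pathways were read from lists of ligands, receptors, releasing factors, inhibitors and further EC signals. Of 14 tested ligands of the same families, 1 was higher and 2 were lower in WT cultures than in acutely isolated ECs. Of all tested genes 13.5% were called higher there and 10.2% lower. The shares were 8.3% and 7.56% in GFP-positive against GFP-negative cells, and 15.1% and 11% in stabilized cultures against tissue. The counts of this and the next lists were not tested against these shares. Bmp2, a relative of Bmp4, rose from a mean of 0.2775 to 47.86 ± 47.72 TPM (SD, n = 6, log2 fold change 5.85, SE 1.09, adjusted p = 0.00297). Edn3, an endothelin that is processed like Edn1, fell from 22.55 to 0.1089 TPM (log2 fold change -8.58, SE 0.70, adjusted p = 8.5e-05), so the 2 endothelin genes went opposite ways in culture. Edn3 was also higher in GFP-positive than in GFP-negative cells (4.25, SE 0.40, adjusted p = 0.00195). In tissue, Tgfb3 (-3.77) and Inhba (-3.34) were lower in GFP-positive cells, and Tgfa was the second ligand gene that was higher. In culture Tgfa fell by 1.60 on the log2 scale on estimated counts, while its mean TPM of 9.361 lay near the 11.85 of tissue.

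None of the 20 receptor genes was called higher in WT cultures (13.5% of all tested genes were) and 4 were lower (10.2%). The median receptor stood at -1.16 on the log2 scale. Bmpr2, a type II receptor for BMPs, fell from 238.1 to 20.59 TPM (-3.64, SE 0.90, adjusted p = 0.0106) and Acvr1, a type I receptor, from 46.37 to 11.63 TPM (-1.82). Pdgfrb, the receptor of PDGF-B, fell from 12.37 to 2.998 TPM (-3.18, SE 0.54, adjusted p = 0.00195), and it is one of the 10 pericyte markers, whose summed level in the acutely isolated ECs is given above. The part of pericytes in that fall was not tested. Tgfbr3, a coreceptor for TGF-beta 2, fell by 1.89 on the log2 scale. The same 4 genes were the ones called lower in stabilized cultures against tissue. In tissue 5 receptor genes were higher in GFP-positive cells, led by Acvrl1 (6.06) and Eng (5.85), a BMP receptor kinase and its coreceptor, and 4 were lower, led by the endothelin receptor gene Ednrb (-6.56).

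Among the 24 tested genes whose products release or retain these ligands, 8 were higher in WT cultures (13.5% of all tested genes were) and 3 lower (10.2%). Thbs1, which encodes thrombospondin 1, an activator of latent TGF-beta, rose from 0.3523 to 787.4 ± 222.7 TPM (9.64, SE 0.79, adjusted p = 8.5e-05). Adam12, a shedding protease (6.01), Plau, the urokinase plasminogen activator (5.23), and Nrros, which anchors latent TGF-beta (3.65), rose as well. Ltbp4, a latent TGF-beta binding protein, fell from 128.0 to 3.097 TPM (-6.26, SE 0.42, adjusted p = 3.9e-05), and was higher in GFP-positive than in GFP-negative cells (5.02). The 2 other genes called lower in culture, named after their values were seen, were Adam10 (-2.33, adjusted p = 0.0085) and Adam17 (-1.71, adjusted p = 0.000846), which encode proteases that shed surface ligands, Hbegf among the substrates of Adam17. In tissue 4 of these genes were higher in GFP-positive cells and 7 lower, the lowest being Pcsk6 (-7.55), a proprotein convertase, and Itgb8 (-6.60), an integrin chain that activates TGF-beta. In stabilized cultures against tissue, 9 were higher and 3 lower.

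Of 15 tested extracellular inhibitors, 2 were higher in WT cultures (13.5% of all tested genes were) and none lower by edgeR (10.2%). These were Fstl1 (3.57, adjusted p = 0.00477) and Fstl3 (2.71, adjusted p = 0.0143), both follistatin-like proteins. In the stabilized cultures Mgp, a BMP-binding matrix protein, was called as well, with a log2 fold change of 2.19 over tissue (adjusted p = 0.00522). Between GFP-positive and GFP-negative cells, Fstl1 was lower (-1.73), while Sparc, a matrix protein gene, was higher (2.26).

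Among 16 tested EC signals to mural cells outside these families, 5 rose in WT cultures, where 13.5% of all tested genes were called higher. The Notch ligand gene Jag2 alone fell (-1.75, adjusted p = 0.0305), where 10.2% were called lower. Ccn2 rose to 2706 TPM (6.21, SE 0.92), Apln to 1332 TPM (5.43, SE 1.07), Ccn1 to 1265 TPM (3.99, SE 0.54) and Angpt2, the antagonist ligand of the receptor Tie2, to 679.1 TPM (5.28, SE 0.62), with adjusted p-values from 0.000367 to 0.00377. Sphk1, which makes sphingosine 1-phosphate, rose to 21.34 TPM from near 0 (adjusted p = 0.000104). In tissue 4 of these genes, led by Nos3 (8.33) and Dll4 (7.10), were higher in GFP-positive cells and 2, led by Vegfa (-5.33), were lower. None of the genes of these 5 lists was called between stabilized and WT cultures by edgeR.

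Genes whose levels ran most alike with each of the 10 were sought among 8748 genes over the 14 libraries, on log2(TPM + 1). Because the libraries fall into groups, these values describe shared steps between groups and carry no test. Pdgfb ran closest to Vwf (Pearson r = 0.99), Pdgfd to Gja5 (0.987) and Vcam1 (0.978), Edn1 to Rpl31 (0.992), Ece1 to Enpp4 (0.991) and Hbegf to Ptgs2 (0.992) and Epha2 (0.99). Tgfb1 ran closest to Pacs1 (0.985), Tgfb2 to Fzd4 (0.943), Bmp4 to Eif5a2 (0.989), Bmp6 to Oaf (0.976) and Pdgfa to Rasl11b (0.914), the lowest of these values. The choice depended on the measure: of the partners named, only Gja5, Enpp4 and Ptgs2 were also among the 3 closest by Spearman rank correlation.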

How the data were processed

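RNA-seq and ATAC-seq files were used as deposited. The authors quantified reads with Salmon 0.14.0 on GENCODE M21 transcripts with sequence, GC and position bias models, and deposited an estimated count and a TPM for each transcript. Both were summed per gene symbol over 21820 protein-coding genes, and sums of estimated counts were rounded. ATAC-seq reads had been mapped by the authors to GRCm38 (HISAT2 2.1.0), and peaks were theirs, made library by library (MACS2 2.1.2) after Picard had taken out duplicates. The deposited peak lists give fold enrichment over local background, −log10 p and q values and a score that is a multiple of the −log10 q value. Fold enrichment above 2 and −log10 q above 2 were required, and peaks overlapping across libraries were merged into regions. The strict setting required 4 and 5.

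Differences were tested with edgeR 4.0.16 (filterByExpr, TMM, quasi-likelihood F-test) in R 4.3.3, using only the groups compared and no covariate, with Benjamini-Hochberg adjustment over all tested genes. The call, given with the results, used the thresholds 0.05, 1 and 5 TPM. Alternatives were DESeq2 1.42.0, limma 3.58.1 on log2(TPM + 1), other scaling and filters, an offset for transcript length, a replicate block, cultures of 1 kind alone, and leaving out each library. The tests were tried on simulated counts. Same-numbered libraries deviated together only for numbers 1 and 2 of the WT and stabilized cultures (correlations 0.54 and 0.53, others between -0.040 and 0.064), so numbers did not pair the samples.

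The 10 genes and the lists were chosen with earlier results of these data known. From each list, up to 5 called genes with the largest log2 fold change were named for WT culture against tissue, and up to 3 for other comparisons. Those of stabilized cultures against tissue were named where they were not already. Likeness used genes with a mean of at least 5 TPM. Promoter and region sequences came from the GRCm38 genome. Hbegf sequence, amino acid sequences and cerebrum samples were not used here, and 1 gene of the lists and the sequence of 1 region are not reported here.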

Additional observations from a re-analysis of the deposited data

Results flagged for a closer look

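The effect of stabilized beta-catenin in method A cultures and in 36-cycle cultures of method B was compared by an interaction term over 8 libraries, an alternative chosen after the data were seen. For 4 of the 10 genes the effects differed between the methods (edgeR's quasi-likelihood test, adjusted p under 0.05), against 51.7% of 12921 tested genes. The log2 difference, method B minus method A, was 1.33 for Pdgfd (SE 0.11, adjusted p = 9.15e-05), which was lower in stabilized cultures of method A and higher in those of method B. It was -0.523 for Ece1 (SE 0.14, adjusted p = 0.0145), -1.81 for Tgfb1 (SE 0.20, adjusted p = 0.000257) and -1.09 for Tgfb2 (SE 0.09, adjusted p = 8.5e-05), each larger in method A. Each arm held 2 wells of 1 experiment, and the WT mice of the methods were of different genotype, so method, genotype of the WT and experiment cannot be told apart. No single library was flagged as apart from the others of its group in the 20 sets of 4 or 6 values examined. The rule used the gap between 1 extreme value and the next, and the wells come in pairs. It could therefore not flag 2 wells of 1 experiment that deviate together. For Tgfb1, WT cultures 3 and 4 held 105 and 87.2 TPM, against 5.83 to 14.2 TPM in the other WT cultures.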

How the results depend on the processing

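Calls of Edn1, Bmp4 and Bmp6 in WT cultures against tissue held under every alternative run, and Hbegf was lost only without either acutely isolated library. The count called lower there, 0 in the main setting, was 1 with DESeq2, with all 14 libraries in 1 fit, in the 150-cycle cultures, in the 36-cycle cultures of method B and, added after seeing the data, in the 36-cycle cultures of both methods; it was 2 in method A cultures and 0 to 1 without single libraries. Counts over all genes moved by more than 1.5 times in WT cultures against tissue, from 3275 to 2108 with wells summed, 4931 in the 150-cycle cultures and 5985 with no TPM minimum; between GFP-positive and GFP-negative cells, from 2396 to 1554 with the length offset and 4479 with no TPM minimum; in stabilized cultures against tissue, from 3618 to 6617 with no TPM minimum; and in stabilized against WT cultures, from 0 to 18 with DESeq2, 810 in method A, 174 in method B and 76 with method as a term over the 36-cycle cultures. Limma called 2 rather than 5 genes higher in GFP-positive cells. Stabilized against WT cultures gave 3 genes higher in method A and 1 in method B, and 1 gene was lower in stabilized cultures against tissue with a length offset and in method B. Using the most abundant transcript alone, the summed TPM of the 10 genes moved from 359.0 to 176.3 in acutely isolated ECs, from 159.6 to 45.4 in GFP-negative cells and from 1205 to 1018 in WT cultures.

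The replicate block, which pairs equal replicate numbers, gave 2 genes lower in WT cultures against tissue and 1 higher in stabilized against WT cultures; under the block Ece1 was at 0.14 in the first and Pdgfa at -0.51 in stabilized cultures against tissue. Genes called higher were 5 rather than 4 in WT cultures and 7 rather than 5 in stabilized cultures against tissue, and the calls between GFP-positive and GFP-negative cells did not change in number. It called 173 of all genes for stabilized against WT cultures, against 0 without it.

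Values that changed sign without a call were these log2 fold changes. In WT cultures against tissue, Pdgfa was 0.17 with library-size scaling, 0.36 with limma, 0.049 with wells summed, 0.85 in method B, 0.29 in 36-cycle cultures and -0.55 to 0.70 without single libraries; Pdgfb was -0.93 in 150-cycle cultures and -0.044 to 0.63 without single libraries; Pdgfd was -0.11 in method B; Ece1 was 0.090 with library-size scaling, 0.54 with limma, 0.15 in method A and -0.26 to 0.0020 without single libraries; and Tgfb2 was 0.11 with limma. Bmp4 ranged from -1.84 to 0.34 between GFP-positive and GFP-negative cells without single libraries. In stabilized against WT cultures, Pdgfa was -0.12 with the offset, -0.17 with limma, -0.057 in method A, -0.33 in method B, -0.20 with a method term and -0.18 to 0.34 without single libraries; Pdgfd was 0.19 with limma, 0.59 in method B and -0.31 to 0.17; Edn1 was -0.016 with library-size scaling, -0.13 in method A, -0.34 in method B, -0.24 with the term and -0.10 to 0.17; Hbegf was -0.033, -0.36, -0.35 and -0.36 in the same settings and -0.19 to 0.23; Tgfb1 was -0.29 with the offset and -0.093 to 0.38. In stabilized cultures against tissue, Pdgfa was -0.028 with DESeq2, -0.38 with the offset, -0.64 in method A and -0.42 to 0.79, and Tgfb2 was 0.38 with the offset and 0.94 with limma. The cause was not tested. Depth limits the lowest values, with 21 and 44 estimated counts for Edn1 in GFP-negative cells and 66 to 250 for Bmp4 and 82 to 357 for Bmp6 in acutely isolated ECs.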
